A study of Bos taurus with 106 samples.

Results

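The genes described here encode the protein subunits of oxidative phosphorylation, measured in the liver of dairy cows from the dry period into lactation. Array elements were taken as members when their gene symbol began with NDUF, SDHA, SDHB, SDHC, SDHD, UQCR, COX4, COX5, COX6, COX7, COX8 or ATP5. The rule found 57 elements for 52 genes, out of 8208 elements on the array, of which 5598 carried a single gene symbol for 4452 genes in all. Complex I had 24 elements for 23 genes, complex II 2 elements, complex III 9 elements for 5 genes, complex IV 6 elements and complex V 11 elements. A further 5 elements stood for genes that assemble or regulate the complexes (NDUFAF3, NDUFAF5, SDHAF2, ATP5IF1 and COX7A2L). UQCRH was present on 3 elements, and UQCRC1, UQCRC2 and NDUFV3 on 2 each. NDUFA4, counted here by its symbol with complex I, is now regarded as a complex IV subunit, and NDUFA4L2 is its paralog. None of the subunits encoded in mitochondrial DNA was among the elements, so all members are nuclear genes.

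Oxidative phosphorylation takes place in the inner mitochondrial membrane. Complex I oxidises NADH and complex II oxidises succinate, both passing electrons through ubiquinone to complex III and from there through cytochrome c to complex IV, which reduces oxygen. The proton gradient built by complexes I, III and IV drives complex V, the ATP synthase. In the liver of a cow that starts to lactate, this machinery serves gluconeogenesis, ureagenesis and the oxidation of fatty acids released from fat depots.

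The samples came from 8 Holstein cows that ate the same ration of moderate energy density (1.60 Mcal/kg) throughout a dry period of 65 days. Restricted cows (4 animals) took in about 80% of their calculated requirement, and ad libitum cows (4 animals) about 120%. The sampling days, counted from calving, were -65, -30, -14, 1, 14, 28 and 49; the ration after calving is not given in the sources used here. There were 53 cow-days, with 7 cows on day -65, 6 on day 49 and 8 on every other day, each hybridised on 2 arrays of opposite dye orientation against a reference RNA mixed from other tissues without liver. A value is the log2 ratio of liver over reference after each array was centred on its median, averaged over both orientations, so that 1 unit is a 2-fold difference and 0 is the level of the median element. Since the reference is fixed, a value can be compared between cow-days of an element; across elements it sets no order of transcript abundance, because each gene has its own level in the reference.

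All 57 members were tested among 8061 elements. The 2 orientations of a cow-day correlated, over all elements, at a mean of 0.70 on day -65, 0.69 on day -30, 0.67 on day 28 and 0.70 on day 49, but at 0.53, 0.44 and 0.48 on days -14, 1 and 14, with a range of 0.033 to 0.816 over the 53 cow-days. For members called on the 3 days around calving and named with a difference, the values of both orientations are therefore given beside the average. The correlation was also not alike in the diets on days -14, 1 and 14. Its lowest value there was that of an ad libitum cow (0.22, 0.033 and 0.20) and its highest that of a restricted cow (0.69, 0.67 and 0.80). The diets overlapped, and fits with this correlation as a covariate are given with the feeding results. Of 24 hepatocyte marker symbols, 4 elements were on the array, and their mean log2 ratio lay between 3.35 and 5.14 in every cow-day, far above the reference; markers of stellate cells and fibroblasts (11 elements) lay between -2.79 and -0.56. The material is whole liver, in which fewer cells of a type and less RNA per cell cannot be told apart.

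Against the reference tissues the subunits of the respiratory complexes stood close to the median element. The mean log2 ratio over all cow-days was above 0 for 29 members and below 0 for 28. NDUFA7, an accessory subunit of complex I, UQCRC1 element 2, a core protein of complex III, and UQCRQ, a small subunit of complex III, were above 0 in all 53 cow-days. NDUFS3, a core subunit of complex I, was below 0 in all of them, from -1.74 to -0.25. The further means are ratios to each gene's own level in the reference tissues, and the ends of their range are given for each complex. In complex I these were -0.79 for NDUFS3 and 0.76 for NDUFV1, the flavoprotein that accepts electrons from NADH. Both complex II elements were above the reference, with means of 0.97 for SDHA, the catalytic flavoprotein, and 0.87 for SDHD, a membrane anchor. In complex III they were -0.37 for UQCRH element 3, the hinge protein that contacts cytochrome c1, and 1.05 for UQCRQ. In complex IV they were -0.70 for COX7A2, the isoform typical of liver, and 0.43 for COX6A2, the isoform typical of heart and skeletal muscle. In complex V they were -0.26 for ATP5MK, a small membrane subunit, and 0.60 for ATP5F1D, the delta subunit of the central stalk. Among the assembly and regulatory genes, NDUFAF3, a complex I assembly factor, was at 0.49 and SDHAF2, which attaches flavin to SDHA, at -0.55.

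The question of the time course was whether these levels moved between the dry period and lactation. In the limma F test over the 7 days, 33 of the 57 members passed a Benjamini-Hochberg adjusted p of 0.05, or 57.9%, against 43.4% of all 8061 elements. The calls were 13 of 24 elements in complex I, 1 of 2 in complex II, 7 of 9 in complex III, 3 of 6 in complex IV, 7 of 11 in complex V and 2 of 5 among the assembly and regulatory genes. The smallest adjusted p-values belonged to NDUFA12, an accessory complex I subunit (3.22e-08), ATP5MK (2.77e-06), COX7A2 (3.41e-06), NDUFA7 (1.41e-05), NDUFV1 (5.83e-05) and ATP5MG, another small membrane subunit of the synthase (6.83e-05). Averaged over both orientations, the day of the highest mean was day 1 for 29 members and day 28 for 14, and the day of the lowest mean was day -65 for 18 and day -30 for 15. The day 1 maximum was seen in one orientation. With liver in Cy5 the highest mean fell on day 1 for 36 members, but with liver in Cy3 it fell on day 1 for 5, on day 28 for 14 and on day 49 for 26. The F test called 25 members with liver in Cy3 only and 38 with liver in Cy5 only.

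NDUFA12 had the widest course of all members in the average of both orientations. Its mean was -1.20 ± 0.28 (SD, n = 7 cows) on day -65, -0.83 ± 0.25 (n = 8) on day -30, -0.37 ± 0.26 on day -14, -0.02 ± 0.23 on day 1, -0.30 ± 0.41 on day 14, -0.59 ± 0.17 on day 28 and -0.59 ± 0.14 (n = 6) on day 49. In that average all cows on day 1, from -0.34 to 0.31, were above all cows on day -65, from -1.59 to -0.82. They were also above all cows on day -30, from -1.25 to -0.42. The ranges within each orientation are not given here. NDUFA12 was picked for its small p in the F test over these same days. The share of all elements that separated in this way was not counted. ATP5MK averaged -0.95 ± 0.37, -0.72 ± 0.23, -0.06 ± 0.35, 0.22 ± 0.34, -0.02 ± 0.49, -0.20 ± 0.36 and -0.16 ± 0.24 on the same days. COX7A2 stood at -1.04 ± 0.16, -1.17 ± 0.14, -0.63 ± 0.35, -0.19 ± 0.24, -0.52 ± 0.54, -0.57 ± 0.09 and -0.83 ± 0.22. In these 3 genes days -65 and -30 were lowest and day 1 was highest in the average. With liver in Cy5 day 1 was also highest, at 0.47 for NDUFA12, 0.99 for ATP5MK and 0.49 for COX7A2. With liver in Cy3 the means on day 1 were -0.51, -0.55 and -0.86, and a later day was higher in each: day 49 for NDUFA12 at -0.49 and for ATP5MK at -0.35, and day 28 for COX7A2 at -0.82. The F test passed in both orientations for all 3 (limma adjusted p of 2.55e-04 for NDUFA12, 0.00303 for ATP5MK and 0.00418 for COX7A2 in Cy3).

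**Figure D1:**
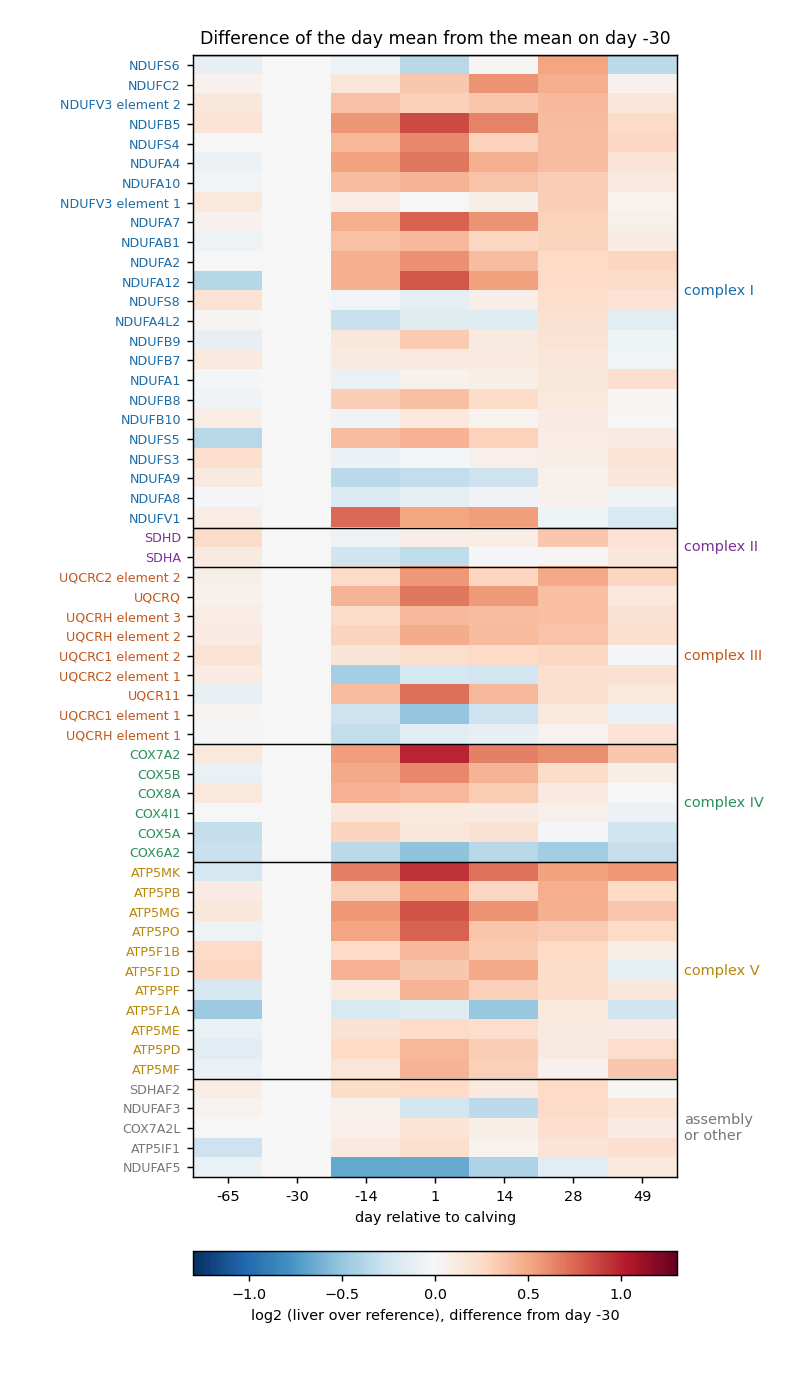
Heat map of the difference between each day's mean log2 ratio, averaged over both orientations, and the mean on day -30 (colour, red above and blue below day -30), with a row for each of the 57 member elements grouped by complex and a column for each day relative to calving, drawn at equal spacing. NDUFA12, COX7A2 and ATP5MK are reddest on day 1, whereas SDHA, COX6A2 and NDUFAF5 are blue there.

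SDHA of complex II was lowest around calving in the average of both orientations. It averaged 1.15 ± 0.32, 1.03 ± 0.13, 0.76 ± 0.35, 0.70 ± 0.41, 1.01 ± 0.40, 1.04 ± 0.21 and 1.18 ± 0.17 (SD) on the 7 days in order, so that its lowest days were days -14 and 1, with overlapping cows on every pair of days. Its mean with liver in Cy3 was 0.82 on day -30, 0.28 on day -14 and 0.19 on day 1, and with liver in Cy5 it was 1.23, 1.25 and 1.20. SDHA was the complex II element that passed the F test (limma adjusted p = 0.042), which it passed in Cy3 (9.30e-04) and not in Cy5 (0.557). SDHD averaged 0.98 ± 0.37, 0.74 ± 0.30, 0.68 ± 0.48, 0.83 ± 0.32, 0.84 ± 0.38, 1.09 ± 0.20 and 0.93 ± 0.22. SDHD thus had its highest mean on day 28 and stood higher on day 1 than on day -30, so complex II had no common course. No step between neighbouring days passed the limma test for either gene.

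The comparison of day 28, in lactation, with day -30, in the dry period, rests on days of which the orientations agreed well. Over all days 2 of the 57 members passed, both higher on day 28. The estimate was above 0 for 53 members, most of which did not pass, and above 0 in both orientations for 40. The signs of the orientations matched for 43 of the 57 members and for 74.3% of all elements. The median log2 difference was 0.23 for the members and 0.05 over all elements tested. The 2 that passed were COX7A2, higher by 0.60 (SE 0.14, limma adjusted p = 0.0375) or 1.52-fold, and NDUFV3 element 2, an accessory subunit next to the NADH site, higher by 0.42 (SE 0.09, adjusted p = 0.0318) or 1.34-fold. That is 3.51% of the members against 0.347% of all elements, and 21 members had an unadjusted p under 0.05. Without centring of the arrays the median of all elements was -0.15 and that of the members 0.03, a gap of 0.19 as with centring, but 33 members were then above 0 and none was called. None of the members was called with liver in Cy3 only or in Cy5 only, with medians of 0.18 and 0.27 and with 14 and 23 members at an unadjusted p under 0.05. Leaving out cow 6877, 6886, 7045, 7050, 7161 or 7187 left 0 calls, and leaving out cow 7105 left 1.

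COX7A2 on day -30 had a lowest value of -1.40, a median of -1.17 and a highest of -0.95, and on day 28 a lowest of -0.77, a median of -0.56 and a highest of -0.48. NDUFV3 element 2 had -0.95, -0.65 and -0.47 on day -30, and -0.44, -0.25 and -0.10 on day 28. In both, every cow of day 28 was above every cow of day -30, so the 2 days did not overlap. The same held for NDUFV3 element 1, with -0.68, -0.43 and -0.40 against -0.28, -0.16 and 0.06, and for UQCRH element 3, with -0.73, -0.63 and -0.48 against -0.46, -0.21 and -0.04. These 4 members were 7.02% of the 57, against 0.695% of all elements whose 8 cows on day 28 lay above all 8 on day -30. In the opposite direction there were 0 members, against 0.136% of all elements. Counted cow by cow, 19 members (33.3%) were higher on day 28 in all 8 cows, against 8.87% of all elements, and 0 were lower in all 8 cows, against 3.56%.

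A fit to days -65, -30, 28 and 49 alone, chosen after seeing the data because the orientations agreed better on those days, gave more calls with the same differences. It called 21 members between day 28 and day -30, 20 higher and 1 lower, or 36.8% against 13.4% of all elements. All 21 had the same sign in each orientation and without centring. The F test over those 4 days called 21 members, against 10.3% of all elements. With liver in Cy3 only, 8 members were called, all higher, against 9.64% of all elements. With liver in Cy5 only, 23 were called, all higher, against 6.62%. Without centring 0 were called. Leaving out cow 6877 left 10 calls between day 28 and day -30, and leaving out cow 7045 or cow 7050 left 12. The F test kept 11 calls without cow 6877, 6886 or 7050, 8 without cow 7045 and 6 without cow 7187.

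Within complex I, 8 of 24 elements rose in the 4-day fit: both NDUFV3 elements, NDUFB5, NDUFS4, NDUFA4, NDUFA10, NDUFA7 and NDUFAB1. NDUFB5, an accessory membrane-arm subunit, was higher by 0.41 (SE 0.11, limma adjusted p = 0.0163), with day -30 values of -1.22, -0.97 and -0.64 (lowest, median, highest) and day 28 values of -0.87, -0.57 and -0.22. NDUFS4, an accessory subunit needed for the late steps of complex I assembly, was higher by 0.40 and NDUFA4 by 0.40, each in 8 of 8 cows. NDUFAB1, which is also the mitochondrial acyl carrier protein, was higher by 0.28 in 7 of 8 cows. NDUFV1, the subunit that binds NADH, had a difference of -0.06 and NDUFS3 one of 0.09, and neither passed.

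Complex III had the largest share of the complexes, 6 of 9 elements for 4 of its 5 genes. UQCRC2 element 2, a core protein, was higher by 0.49 (SE 0.12, limma adjusted p = 0.0111), with -0.28, 0.38 and 0.74 on day -30 and 0.28, 0.78 and 1.12 on day 28. UQCRQ was higher by 0.39 (SE 0.08, adjusted p = 0.0053) and moved from 0.55, 0.73 and 0.93 to 0.84, 1.14 and 1.43. The cows of the 2 days overlapped in both genes, although UQCRC2 element 2 was higher in 8 of 8 cows and UQCRQ in 7. The UQCRH elements did not give the same size: element 2 was higher by 0.37 and element 3 by 0.39, while element 1 differed by 0.04 and did not pass.

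In complex IV the members parted. COX7A2 had the smallest adjusted p of all members in the 4-day fit, at 8.4e-05, and COX6A2 was the only one that fell, by 0.45 (SE 0.13, limma adjusted p = 0.026), lower in 6 of 8 cows. COX6A2 values were 0.16, 0.77 and 1.18 on day -30 and -0.45, 0.24 and 1.17 on day 28, so that the days overlapped over most of their range. Of the 3 striated muscle marker elements on the array, for 2 genes, 1 was higher in that fit and their median difference was -0.21. The higher element was DES element 2, and DES is also on the list for stellate cells and fibroblasts. The part of these markers in the COX6A2 result was not tested. The remaining 4 elements, COX4I1, COX5A, COX5B and COX8A, had differences between -0.03 and 0.24 and did not pass.

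In complex V, 4 of 11 elements rose: ATP5MK by 0.52, ATP5PB, the peripheral stalk subunit b, by 0.47, ATP5MG by 0.46 and ATP5PO, the stalk subunit that confers oligomycin sensitivity, by 0.33, each in 8 of 8 cows. ATP5MG had -0.93, -0.70 and -0.38 on day -30 and -0.46, -0.22 and 0.12 on day 28. ATP5MK had -1.10, -0.63 and -0.51, and then -0.86, -0.16 and 0.29. In both genes the highest cow of day -30 was above the lowest cow of day 28. The catalytic subunits ATP5F1A and ATP5F1B had differences of 0.14 and 0.26 and did not pass. In complex II, SDHD differed by 0.35 in 8 of 8 cows and SDHA by 0.01 in 4 of 8, and neither passed. Among the assembly and regulatory genes, SDHAF2 rose by 0.26 (SE 0.08, limma adjusted p = 0.0274), and ATP5IF1, the inhibitor of the synthase, had a difference of 0.17 that did not pass.

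Some cell type markers were called in the same 4-day fit. The 4 hepatocyte elements had a median difference of 0.17 with 1 called higher, and the 12 Kupffer cell and macrophage elements had 0.24 with 1 called higher. The 8 endothelial elements had 0.05 with 1 called higher and 1 lower, and the 11 stellate cell and fibroblast elements had -0.07 with 1 called higher. The last of these calls was DES element 2, which is also on the striated muscle list and is the element called there. Of all elements 13.4% were called in that fit, and in the fit to all 7 days none of these markers passed for this comparison. Their mean levels on days -30 and 28 were 4.51 and 4.73 for hepatocytes, 2.90 and 3.13 for macrophages, 1.67 and 1.74 for endothelium and -2.46 and -2.47 for stellate cells and fibroblasts. Their part in the members' differences was not tested.

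**Figure D2:**
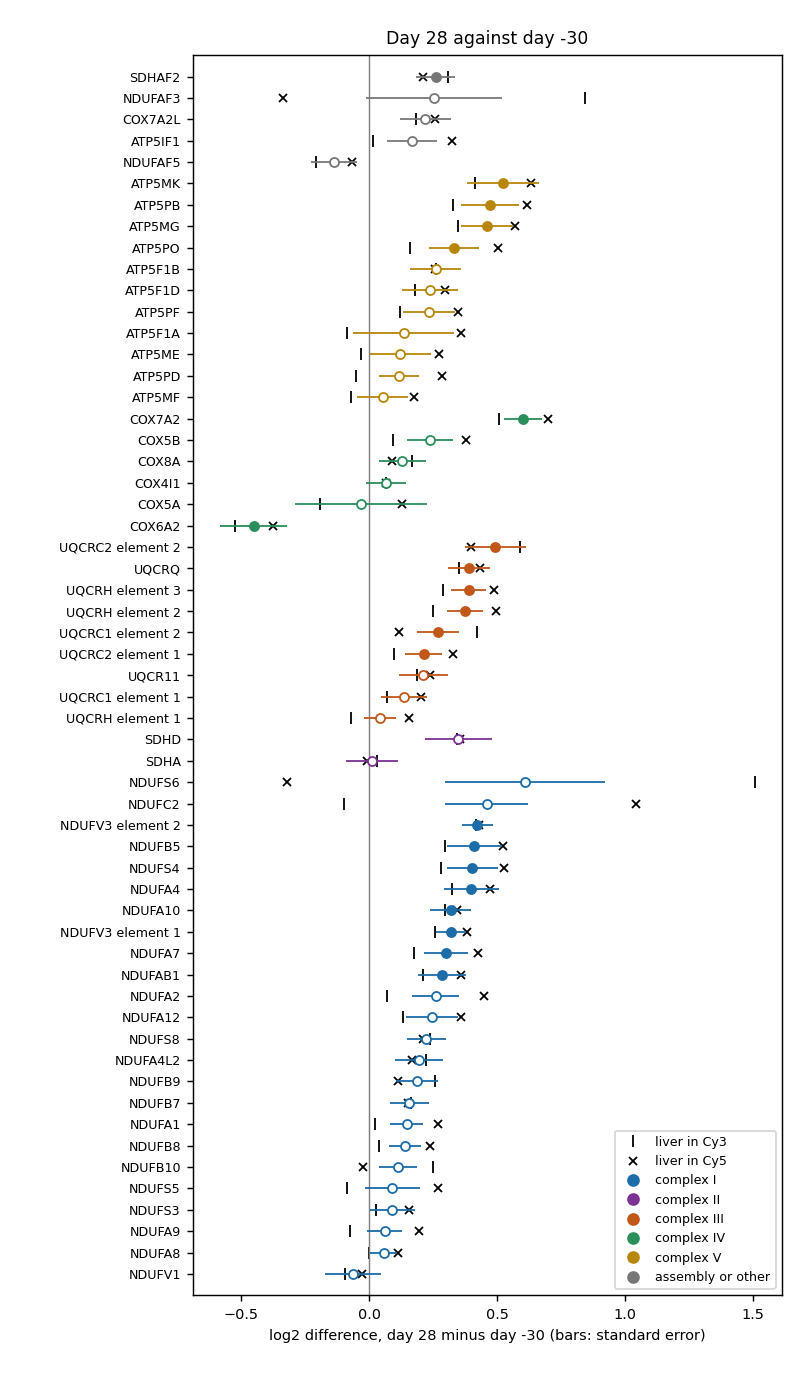
Log2 difference between day 28 and day -30 (x axis) for each of the 57 member elements (y axis, coloured by complex), with standard errors from the fit to 4 days as bars, filled points for called members, ticks for liver in Cy3 and crosses for liver in Cy5. Of 57 members 53 lie to the right of 0, and COX6A2 is the filled point to the left.

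Late in the dry period, between day -30 and day -14, 24 members were called in the limma fit, or 42.1% against 33.5% of all elements. Of these 21 rose (19.5% of all elements rose) and 3 fell (14% of all elements fell). The rising members were 12 of 24 elements in complex I, 2 of 9 in complex III, 3 of 6 in complex IV and 4 of 11 in complex V, with none of the 2 in complex II. The median difference was 0.23 for the members and 0.06 for all elements. Without centring the median of all elements rose to 0.48 and 37 members were called, all higher. The members stood 0.18 above the median of all elements with and without centring.

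The 2 dye orientations disagreed on most of this step. With liver in Cy3 only, 14 members were called, 5 higher and 9 lower, against 41% of all elements, and the members' median was -0.07. With liver in Cy5 only, 29 were called, all higher, against 28.8% of all elements, and the median was 0.45. The estimate was below 0 in Cy3 and above 0 in Cy5 for 28 members, above 0 in both for 22 and below 0 in both for 6. The 2 signs matched for 60.5% of all elements tested and for 28 of the 57 members. Of the 24 members called, 19 had the same sign in both orientations.

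**Figure D3:**
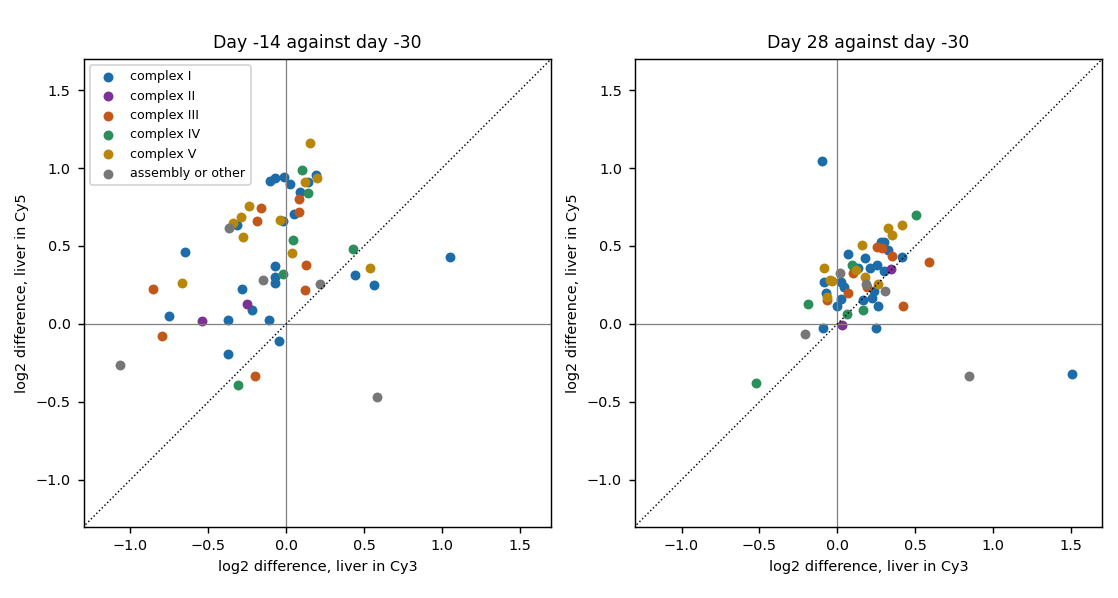
Log2 difference of each member element with liver in Cy3 (x axis) against liver in Cy5 (y axis), for day -14 against -30 and for day 28 against -30. For day -14, 28 members fall where Cy3 is below 0 and Cy5 above 0, and for day 28, 40 members are above 0 in both.

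The members that rose in both orientations included NDUFV1 and NDUFV3, which sit together at the NADH end of complex I. NDUFV1 had -30 values of 0.25, 0.53 and 0.74 (lowest, median, highest) and day -14 values of 0.65, 1.23 and 1.89. It was higher in 8 of 8 cows, by 0.74 (SE 0.17, limma adjusted p = 9.0e-04), or 1.67-fold, with 1.05 in Cy3 and 0.43 in Cy5, and the days overlapped in the range from 0.65 to 0.74. NDUFV3 element 2 was higher by 0.38 in 8 of 8 cows (0.44 in Cy3, 0.31 in Cy5), but element 1 of that gene differed by 0.10 and did not pass, with -0.07 in Cy3. COX8A, a complex IV subunit, was higher by 0.45 (0.43 and 0.48), ATP5F1D by 0.45 (0.54 and 0.36) and NDUFA10 by 0.41 (0.56 and 0.25).

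Several members with large averages had a near-zero difference in one orientation. NDUFA12 rose by 0.46 on average, with -0.01 in Cy3 and 0.94 in Cy5. COX5B rose by 0.49 (0.14 in Cy3, 0.84 in Cy5), COX7A2 by 0.54 (0.10 and 0.99), ATP5MK by 0.66 (0.15 and 1.16) and ATP5MG by 0.57 (0.20 and 0.93). In these 5 genes the Cy3 differences lay between -0.01 and 0.20 and the Cy5 differences between 0.84 and 1.16.

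The 3 members that fell were NDUFAF5, a complex I assembly factor, by 0.66 (SE 0.16, limma adjusted p = 0.0019), UQCRC2 element 1 by 0.44 (SE 0.17, adjusted p = 0.0378; -0.80 in Cy3, -0.08 in Cy5 and -0.02 without centring) and UQCRH element 1 by 0.32 (SE 0.10, adjusted p = 0.0103). NDUFAF5 values went from -0.17, 0.07 and 0.24 on day -30 to -1.90, -0.57 and 0.09 on day -14, lower in 7 of 8 cows and overlapping at the top. It fell by 1.07 in Cy3 and by 0.26 in Cy5. UQCRH element 1 differed by -0.85 in Cy3 but by 0.22 in Cy5, and by 0.11 without centring, so its direction turned with both choices.

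Elements of the same gene disagreed at this step in complex III. UQCRC2 element 2 had a difference of 0.25 and the UQCRH elements 2 and 3 had 0.29 and 0.24, none of which passed, opposite in sign to UQCRC2 element 1 and UQCRH element 1. A cDNA element can also bind transcripts of related genes, and the elements of one gene may cover different stretches of it. No direction is therefore given for UQCRC2 or UQCRH as genes at this step.

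The median over the members of a cow-day showed the split by dye across the whole course. With liver in Cy3 its mean was -0.25, -0.21, -0.39, -0.26, -0.27, -0.09 and -0.00 on the 7 days in order. With liver in Cy5 it was -0.01, -0.01, 0.40, 0.57, 0.45, 0.25 and 0.04. The orientations lay furthest apart on days -14, 1 and 14 and met on day 49. The average of both was -0.14, -0.09, 0.02, 0.16, 0.10, 0.08 and 0.02, with its maximum on day 1, as in Cy5, whereas the maximum in Cy3 was on day 49.

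**Figure D4:**
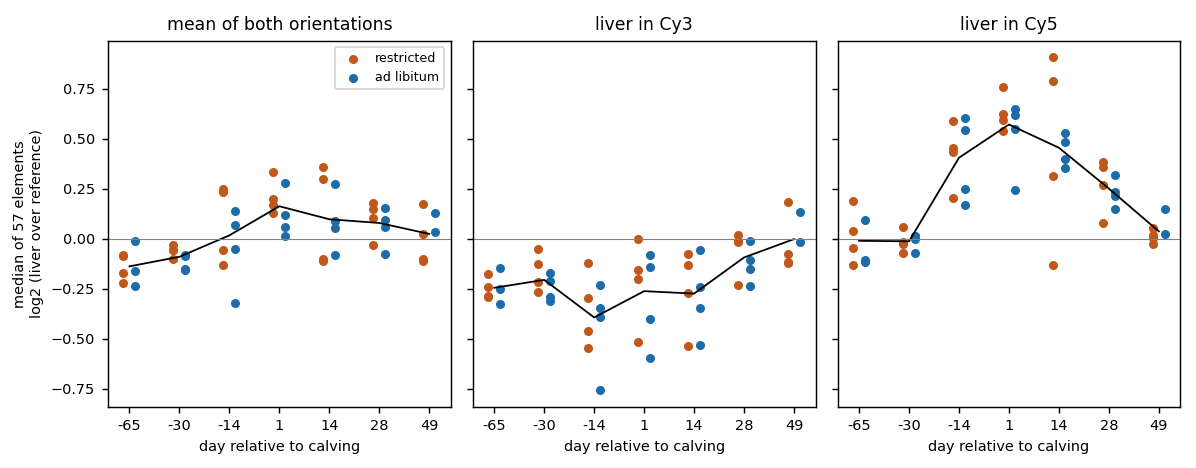
Median log2 ratio over the 57 member elements in each cow-day (y axis) by day relative to calving (x axis, equal spacing), in panels for the mean of both orientations, liver in Cy3 and liver in Cy5, with points for cows coloured by diet and a line for the mean over cows. On day 1 the line is at -0.26 in Cy3 and at 0.57 in Cy5, and on day 49 both are near 0.

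Some cell type markers were called over the same step, at which 33.5% of all elements were called, 19.5% higher and 14% lower. Of the 4 hepatocyte elements 3 fell between day -30 and day -14, each in both orientations, and the median difference was -0.61. The mean level of the list ran 4.82, 4.51, 3.74, 3.57, 3.92, 4.73 and 4.51 over the 7 days. Of the 11 stellate cell and fibroblast elements 6 rose, with a median of 0.54, while of the 8 endothelial elements 3 fell and 1 rose. The single neutrophil marker element rose by 0.96. DES element 2, on both the stellate cell and the striated muscle list, was called higher by 0.61. CD8A, on the list for T and NK cells, was called higher by 0.62. These lists are small and their part in the members' differences was not tested.

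Across calving and in the first weeks of lactation few members moved past the test. Between day -14 and day 1, 0 members were called against 0.397% of all elements, with 6 at an unadjusted p under 0.05 in the limma fit and 44 estimates above 0. The estimates had the same sign in both orientations for 52 of the 57 members and for 68.7% of all elements. The smallest p was that of COX7A2, with a difference of 0.44 (SE 0.14, adjusted p = 0.186; 0.36 in Cy3 and 0.52 in Cy5), followed by NDUFA12 at 0.35 (0.28 and 0.41) and ATP5PF, coupling factor 6 of the synthase, at 0.30 (0.33 and 0.27). Between day 1 and day 14, 0 were called against 0.707%, with 5 at an unadjusted p under 0.05, among them COX7A2 at -0.33 (-0.15 in Cy3 and -0.51 in Cy5), ATP5PO at -0.42 (-0.25 and -0.58) and NDUFA12 at -0.28 (-0.15 and -0.41). Between day -65 and day -30, 0 were called against 0.112%, with 4 at an unadjusted p under 0.05, among them NDUFA12 at 0.38, NDUFS5 at 0.38 and ATP5IF1 at 0.30.

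Between day 14 and day 28, 3 members were called in the limma fit, or 5.26% against 8.62% of all elements, so the members were not called more often than other elements. NDUFV1 fell by 0.60 (SE 0.17, adjusted p = 0.0181), from 0.49, 1.04 and 1.63 (lowest, median, highest) to -0.10, 0.52 and 0.67, in 7 of 8 cows, with -0.99 in Cy3 and -0.21 in Cy5. ATP5F1A, the alpha subunit of the synthase, was higher by 0.63 (SE 0.20, adjusted p = 0.042), from -1.18, 0.00 and 0.87 to 0.29, 0.54 and 0.73, with 0.38 in Cy3 and 0.88 in Cy5. For ATP5F1A all ad libitum cows on day 14 lay below all restricted cows, as given under feeding below. The value of -1.18 was from an ad libitum cow and that of 0.87 from a restricted cow. The diets thus started from unlike levels, and the change was not tested within a diet. UQCRC1 element 1 was higher by 0.41 (SE 0.13, adjusted p = 0.0424) and in both orientations (0.41 and 0.40), but had -0.07 without centring. Over all 57 members the orientations went apart at this step: 36 were above 0 in Cy3 and below 0 in Cy5. The sign was the same in both for 19 members and for 47.9% of all elements. With the cow as a fixed block 1 call was left, that of NDUFV1, while ATP5F1A and UQCRC1 element 1 had adjusted p-values of 0.0583 and 0.0523. The Cy3 values alone called 12 members higher and 1 lower, the Cy5 values alone called 3 lower, and without centring 18 were called, all lower. The calls also depended on single cows, with 0 left without cow 7045 or cow 7105, 1 without cow 6877, 6886 or 7187 and 8 without cow 6952. Over this step 3 of 4 hepatocyte marker elements rose, with a median of 0.78.

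Between day 28 and day 49, 0 members were called over all days against 0.0124% of all elements, with 7 at an unadjusted p under 0.05. The 4-day fit called 2, both lower, or 3.51% against 4.12% of all elements: NDUFV3 element 2 by -0.28 and element 1 by -0.24, which became 0.15 and 0.17 without centring. Both elements were lower in all 6 cows sampled on both days, but 0 were called without cow 6877, 6886, 7045, 7050, 7105 or 7187. NDUFS6, a complex I subunit that binds zinc, had a difference of -0.97 (SE 0.40, adjusted p = 0.626), with -1.92 in Cy3 and 0.02 in Cy5. Its SD over cow-days, 0.75, was the largest of all members.

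The feeding comparison asked whether prepartum intake left a mark on the subunits before and after calving. Differences are given as ad libitum minus restricted cows, with 4 cows a group. Where these groups are said not to overlap, the share of all elements that did the same was not counted. The members named were picked for their small p. On day -30, during feeding, 0 members were called, against 0% of all elements, and 0 had an unadjusted p under 0.05 in the limma fit. On day -14, 3 members were called, all lower in ad libitum cows, or 5.26% against 6.08% of all elements. The median difference on that day was -0.04 for the members and 0.00 for all elements. On neither day was a larger share of the members called than of all elements.

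The 3 members of day -14 were 2 from complex III and 1 from complex IV. UQCR11, a small complex III subunit, was at 0.07, 0.56, 0.94 and 1.09 in restricted cows and at -0.38, -0.35, 0.07 and 0.26 in ad libitum cows. It was lower with ad libitum intake by 0.77 (SE 0.20, limma adjusted p = 0.0162), although the groups overlapped. COX4I1, the regulatory subunit of complex IV, was at 0.11, 0.24, 0.53 and 0.73 against -0.41, -0.33, -0.02 and -0.01, lower by 0.59 (SE 0.17, adjusted p = 0.0263) with no overlap. UQCRC1 element 1 was at 0.24, 0.67, 0.77 and 1.00 against -0.04, -0.02, 0.12 and 0.14, lower by 0.62 (SE 0.19, adjusted p = 0.0388) with no overlap, and element 2 of that gene had a difference of -0.39 that did not pass. All 3 had the same sign in both orientations, with -0.69 in Cy3 and -0.84 in Cy5 for UQCR11, -0.60 and -0.59 for COX4I1 and -0.60 and -0.63 for UQCRC1 element 1. The Cy3 values alone called 0 members and the Cy5 values alone 7. None was called without centring, with scaling of the arrays, without cow 6886, without cow 7050 or without cow 7105. Without the cow-days whose orientations correlated under 0.6 only 1 ad libitum cow, 7161, was left, so no count is given. With that correlation as a covariate 1 was called, and without cow 6877 there were 13. T and NK cell markers were lower in ad libitum cows on this day in 3 of 6 elements, with a median of -0.77, and macrophage markers had a median of -0.65; their part was not tested.

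After calving, fewer of the members than of all elements were called on days 1 and 14. On day 1, 1 member was called, or 1.75% against 10.7% of all elements. This was NDUFAF5, at -1.76, -1.10, -0.74 and -0.64 in restricted cows and -0.34, -0.30, 0.00 and 0.04 in ad libitum cows. It was higher in ad libitum cows by 0.91 (SE 0.23, limma adjusted p = 0.0142), or 1.88-fold, with 0.74 in Cy3 and 1.08 in Cy5, and the groups did not overlap. The call was lost without centring (0.63, adjusted p = 0.264), with liver in Cy3 only (adjusted p = 0.14) and without cow 7045, 7161 or 7187. Without cow 6877 and with the correlation of the orientations as a covariate 3 members were called, and with liver in Cy5 only 2.

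On day 14, 4 members were called, or 7.02% against 15.3% of all elements. NDUFA9, a complex I subunit of the peripheral arm, was at -1.24, -0.995, -0.77 and -0.13 in restricted cows and 0.01, 0.11, 0.16 and 0.39 in ad libitum cows. It was higher in ad libitum cows by 0.95 (SE 0.22, limma adjusted p = 0.0049), or 1.93-fold, with 1.14 in Cy3 and 0.76 in Cy5 and no overlap between the groups. NDUFS8, an iron-sulphur subunit of complex I, was at -0.32, -0.19, 0.01 and 0.55 against 0.29, 0.58, 0.59 and 0.95, higher by 0.59 (SE 0.18, adjusted p = 0.0208; 0.73 in Cy3 and 0.45 in Cy5) with overlap. NDUFAF5 was at -1.07, -0.99, -0.72 and -0.10 against -0.15, -0.06, 0.09 and 0.12, higher by 0.72 (SE 0.23, adjusted p = 0.0295; 0.66 in Cy3 and 0.78 in Cy5) with overlap in 1 cow of each group.

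ATP5F1A went the other way on day 14. It was at 0.09, 0.31, 0.34 and 0.87 in restricted cows and -1.18, -0.52, -0.45 and -0.09 in ad libitum cows, lower by 0.96 (SE 0.29, limma adjusted p = 0.0174) with no overlap, although the size was -0.40 in Cy3 and -1.52 in Cy5. Without centring 1 call was left on day 14, that of NDUFA9, and with liver in Cy3 only 2 were left, those of NDUFA9 and NDUFS8. Without the cow-days whose orientations correlated under 0.6 only 1 ad libitum cow, 7161, was left on day 14, so no count is given. With that correlation as a covariate 8 members were called. Leaving out cow 6886 or cow 7045 left 1 call on day 14, and leaving out cow 7161 or cow 7187 left 2. Leaving out cow 6877 gave 7 and leaving out cow 6952 gave 11. Macrophage markers were lower in ad libitum cows on day 14 as well, with a median of -0.65 over 12 elements and 3 called (1 higher, 2 lower); their part was not tested.

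**Figure D5:**
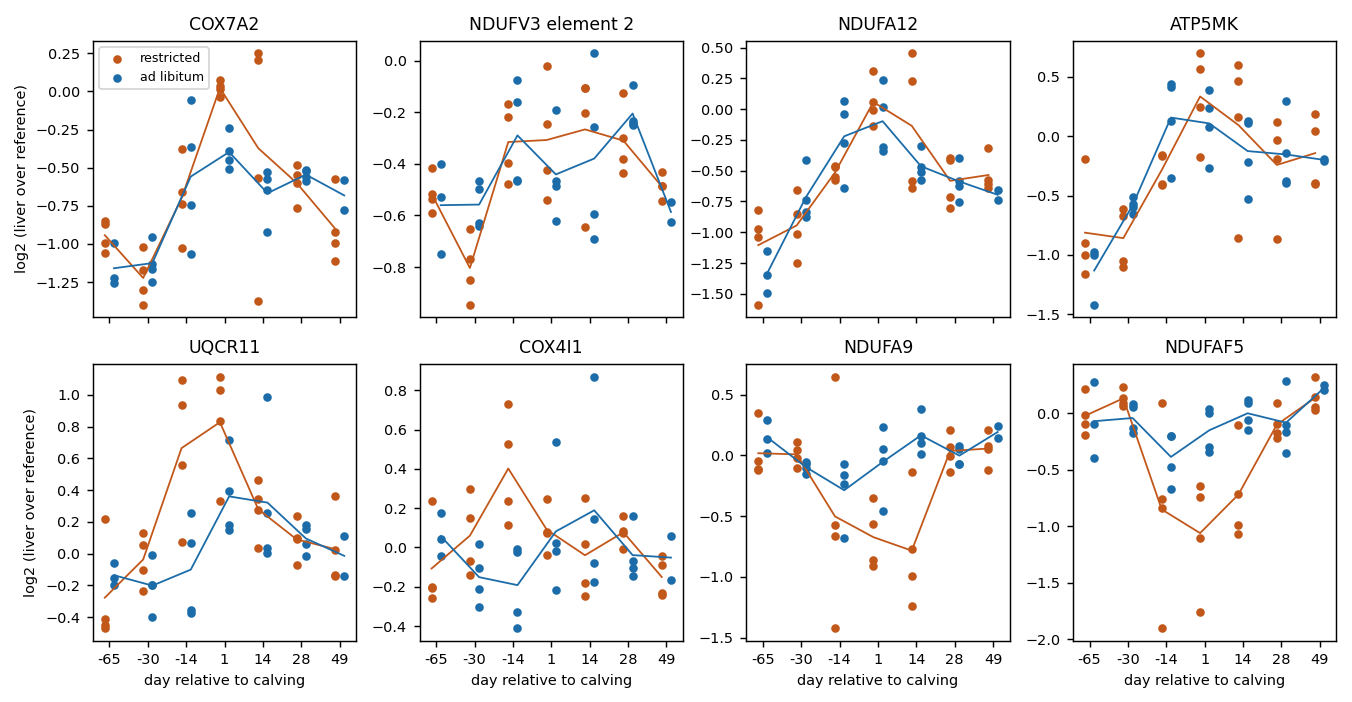
Log2 ratio of liver over reference (y axis) of single cows (points) by day relative to calving (x axis, equal spacing) for 8 of the members, coloured by diet, with lines for the diet means. NDUFA9 on day 14 and NDUFAF5 on day 1 show the restricted cows below the ad libitum cows without overlap, and the share of all elements that did the same was not counted.

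Between the feeding groups 0 members were called on day 28, against 0% of all elements, with 2 at an unadjusted p under 0.05 in the limma fit. NDUFA9 and NDUFAF5 then had differences of -0.04 and 0.02 (SE 0.22 and 0.23). With 1 value per cow averaged over days 1, 14 and 28, 2 members were called, or 3.51% against 10.5% of all elements. These were NDUFAF5, higher in ad libitum cows by 0.55 (SE 0.10, adjusted p = 0.0037; 0.44 in Cy3 and 0.65 in Cy5), and NDUFA9, by 0.51 (SE 0.12, adjusted p = 0.0202; 0.51 and 0.51). Neither was called without centring or with liver in Cy3 only. NDUFA9 lost its call without cow 7045, 7105, 7161 or 7187. When cow-days with an orientation correlation under 0.6 were left out, neither was called, at differences of 0.27 and 0.20. That filter left the diets with unlike days, so it is no check on the same difference. Restricted cows 6877 and 6952 kept days 1, 14 and 28. Ad libitum cow 7161 kept only day 14, and all other cows kept only day 28. With 1 value per cow over days -30 and -14, 0 were called against 0% of all elements, with 11 at an unadjusted p under 0.05.

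Whether the feeding difference itself changed over time was tested directly. The F test of diet by day called 0 members, against 0.509% of all elements, with 8 at an unadjusted p under 0.05, and 4 were called without cow 6877 and 6 without cow 6952. The test of the change from the dry period to lactation per cow called 0 members, against 0% of all elements, with 9 at an unadjusted p under 0.05. The smallest p in that test was that of NDUFS8, whose change was larger in ad libitum cows by 0.51 (SE 0.19, limma adjusted p = 0.504). A difference between days in the effect of feeding was therefore not shown for any member.

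Genes that feed, assemble or drain the respiratory chain were counted from fixed lists, beside 13.4% of all elements called in the 4-day fit. Assembly factors of the complexes had 10 elements, of which 4 rose between day -30 and day 28 in the 4-day fit, with a median of 0.21. Of 9 elements for other routes of electron entry and ubiquinone synthesis, 3 rose, with a median of 0.17, and COQ9, which supports ubiquinone synthesis, was called over all days as well, at 0.46 (SE 0.11, limma adjusted p = 0.0375). Of 17 elements of the tricarboxylic acid cycle and its pyruvate supply, 4 rose, with a median of 0.32. Of 11 elements for ATP export and membrane carriers, 6 rose, with a median of 0.31. Of 6 elements for regulators of mitochondrial biogenesis, 1 fell and none rose, with a median of 0.07. Of the 3 tested elements listed as respiratory subunits under other symbols (HIGD1A, HIGD2A and DMAC2), 0 were called, with a median of 0.06. The median over all elements was 0.05.

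Between day -30 and day -14 the same lists gave 1 of 10 higher for assembly factors, 1 higher and 2 lower of 9 for electron entry, 4 higher and 2 lower of 17 for the tricarboxylic acid cycle, 4 of 11 higher for carriers, and 1 higher and 2 lower of 6 for regulators. HIGD1A, HIGD2A and DMAC2 were not called. Of all elements 33.5% were called at this step, 19.5% higher and 14% lower. PC, pyruvate carboxylase, rose by 0.84 (0.83 in Cy3, 0.85 in Cy5). SLC25A5, an exchanger of ADP and ATP, rose by 0.40 (0.21 in Cy3, 0.59 in Cy5), and VDAC2 element 2, a pore of the outer membrane, by 0.60 (0.47 and 0.74). COX17, a copper chaperone of complex IV, rose by 0.38 on average, with -0.16 in Cy3 and 0.92 in Cy5. NRF1, a transcription factor whose targets include many respiratory subunit genes, rose by 0.51 (0.48 and 0.54), while ESRRA, another such factor, fell by 0.68 and YY1 by 0.44. The 2 MDH2 elements went opposite ways, at 0.63 and -0.83, so no direction is given for that gene. All these comparisons share the day -30 samples.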

How the data were processed

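Liver RNA of 53 cow-days was hybridised with a reference RNA on 106 two-colour cDNA arrays, once in each dye orientation. Slides were read on a Scanarray 4000 and quantified with GenePix 4.0, per the submitters' processing notes. The authors deposited a log2 ratio for each of 16416 spots, 2 per element; background correction and normalization are not given in the sources used here. Values were missing for 1.23% of spots. Array medians ran from -1.69 to 1.80, so each array was centred on its median. Ratios were turned to liver over reference by the dye in the sample title (in 4 arrays the source name gives the other dye), and spots and then orientations were averaged, so that a cow-day is 1 sample.

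Gene symbols came from the platform's probe table; all 114 member spots matched a symbol of the RefSeq gene table. Limma 3.58.1 in R 4.3.3 (statmod 1.5.0) fitted 14 diet-by-day means over 8061 elements with the cow as a random block (duplicateCorrelation, within-cow correlation 0.0176). Period tests used 1 value per cow. P-values were adjusted by Benjamini-Hochberg over all elements tested, at 0.05. NDUFC2, NDUFS5 and NDUFS6 lacked a value in 1 or 2 cow-days and were fitted on the rest. The fits were tested on simulated data.

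Named members were those with the smallest p per comparison and complex, those with extreme levels, complex II and genes whose elements disagreed; the members called in the 4-day fit were named after their values were seen. Members and lists were chosen with earlier results of these data known. Alternatives changed the centring, scaling, dye orientation, missing-value filter, array agreement, block and cow.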

Additional observations from a re-analysis of the deposited data

Results flagged for a closer look

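In groups of 4 cows of one diet and day, 1 cow stood apart from the other 3 by Dixon's ratio of gap to range in 26 of 441 groups of the named members, or 5.9%; chance flags about 1 in 20. Values are log2 ratios of liver over reference, and no explanation was tested.

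On day -65 the restricted cow 6877 was high in UQCR11 (0.22), UQCRQ (0.99) and COX4I1 (0.24) and low in ATP5MG (-0.96). Restricted cow 6952 was high on that day in NDUFA9 (0.35) and UQCRC2 element 1 (0.84). On day -30 the ad libitum cow 6886 was high in NDUFS8 (0.40) and UQCRH element 3 (-0.48), and restricted cow 6952 was low in NDUFAF3 (-0.83). On day -14, restricted cow 7105 was high in ATP5F1A (1.36) and restricted cow 7045 low in ATP5IF1 (-0.62).

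On day 1 the restricted cow 7045 was high in NDUFS3 (-0.51) and low in UQCRH element 2 (-0.21), and restricted cow 7105 was high in ATP5IF1 (-0.066). Among ad libitum cows of day 1, cow 7187 was low in UQCRC2 element 2 (0.028) and ATP5F1A (-0.20), and cow 7050 low in NDUFAF3 (-0.16). On day 14, restricted cow 6952 was high in UQCRC1 element 1 (1.18) and ad libitum cow 7161 low in UQCRC2 element 2 (-0.39).

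On day 28 the restricted cow 7105 was low in NDUFS8 (0.25) and SDHD (0.63). Ad libitum cow 7050 was high in NDUFV3 element 2 (-0.096) and UQCRC2 element 2 (1.02), cow 7161 high in UQCRH element 1 (0.10) and cow 6886 low in COX6A2 (-0.45). On day 49, restricted cow 7105 was high in NDUFS6 (1.29).

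In 3 cases every restricted cow sampled on both of 2 days moved one way and every such ad libitum cow the other way. The difference between the diets was not tested there, nor was the number of such cases that arise by chance. Cow 7050 had no sample on day -65, so 3 ad libitum cows entered for that day. The mean change in ad libitum minus restricted cows was 0.36 for COX7A2 between days -65 and -30, 0.55 for NDUFAB1 over the same days, and -0.69 for COX6A2 between days 1 and 14.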

How the results depend on the processing

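Counts are of the 57 member elements past adjusted p = 0.05 in limma, and where a count moved by over 1.5 times the cause was not tested. Without centring, day -14 against -30 had 37 calls, day 28 against 14 had 18, day 28 against -30 had 0, and feeding had 0 on day -14, 0 on day 1, 1 on day 14 and 0 after calving; UQCRH element 1 turned to 0.11 (day -14 against -30) and UQCRC1 element 1 to -0.066 (day 28 against 14). With scaling, day 28 against 14 had 6, day 28 against -30 had 10 and feeding on day -14 had 0. With liver in Cy3 only, day -14 against -30 had 14, day 28 against 14 had 13, day 28 against -30 had 0, and feeding had 0 on day -14, 0 on day 1, 2 on day 14 and 0 after calving. With liver in Cy5 only, day 28 against -30 had 0 and feeding had 7 on day -14 and 2 on day 1, and UQCRH element 1 turned to 0.22 (day -14 against -30). Leaving out the 20 cow-days whose orientations correlated under 0.6 gave 9 for day 28 against 14 and 1 for day 28 against -30. The count of 9 is no check on the main result. On day 14 only cows 6877, 6952 and 7161 were left, with 7161 the only ad libitum cow. Feeding had 0 calls after calving, where this filter left the diets with unlike days. For feeding on days -14 and 14 no count is given, because cow 7161 was the only ad libitum cow left. The F tests and the comparisons with day 1 could not be fitted and were not run. With the correlation of the orientations as a covariate, day 28 against 14 had 5 and feeding had 1, 3 and 8 on days -14, 1 and 14.

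The same cows on several days give a paired design: with no replicate block day -14 against -30 had 24 calls, as with a fixed replicate block, and the fixed block left 1 for day 28 against 14 and moved no other count by over 1.5 times.

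The fit to days -65, -30, 28 and 49, chosen after seeing the data, gave 21 calls in the F test, 21 for day 28 against -30 and 2 for day 49 against 28. Within it, no centring gave 0, 0 and 0, Cy3 only gave 8 for day 28 against -30 and 7 for day 49 against 28, Cy5 only 8 for day 49 against 28, and scaling 4. Leaving out each cow in turn gave ranges of 6 to 23, 10 to 22 and 0 to 3 for its 3 tests. Over all days the ranges were 26 to 35 for the F test, 16 to 25 for day -14 against -30, 0 to 8 for day 28 against 14, 0 to 2 for day 28 against -30, 0 to 13, 0 to 3 and 1 to 11 for feeding on days -14, 1 and 14, 0 to 6 for diet by day and 1 to 3 for feeding after calving. Without cow 7161 or 7187, 1 ad libitum cow remained on day 49 and was assumed to vary like the other groups. Of the named differences under the alternatives, 635 kept direction and side of the threshold, 136 lost the call, 11 gained it, 5 moved and 3 reversed. Elements on 2 spots and 4 cows a group limit the precision.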
